A study of Homo sapiens with 14 samples.

Results

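The genes described here are the ZNF genes of human chromosome 19, a chromosome known for its dense arrays of such genes. The count table of the study listed 58219 genes, of which 246 were protein-coding genes on chromosome 19 with a symbol made of ZNF and a number. Of these, 197 were kept because they reached a CPM (counts of a gene per 1e6 counts of its library) of at least 1 in 2 or more of the 14 libraries. The members were thus chosen by their CPM levels in these libraries, which are given as a description. ZNF493, ZNF429 and ZNF132 lay just inside the limit, with a second highest value of 1.01, 1.05 and 1.05 CPM, and ZNF582, ZNF229 and ZNF528 just outside it, at 0.932, 0.918 and 0.876 CPM. All 197 also passed the filter of the count test, as did 23 of the 49 genes that were not kept. For 8 of the 197 no control library reached 1 CPM, so they entered only through knockdown libraries. These are ZNF429, ZNF439, ZNF493, ZNF563, ZNF667, ZNF681, ZNF699 and ZNF709, and an increase of such a gene follows in part from the rule, so their values are a description whatever their p-value. Of these 8, 5 were called higher in siPAX8, 4 in siSOX17, 6 in siDual, 2 in siMECOM and 1 in siWT1 cells. Over the other 189 members 75 were higher and 16 lower in siPAX8, 28 and 48 in siSOX17, 59 and 30 in siDual, 55 and 8 in siMECOM and 9 and 37 in siWT1 cells, while the counts below are over all 197.

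Most of these genes encode C2H2 (Krüppel-type) zinc-finger proteins. In such a protein a row of fingers joined by short conserved linkers reads the DNA sequence, and in many of them a KRAB box near the amino terminus recruits TRIM28 (KAP1), which brings the histone methyltransferase SETDB1, heterochromatin protein 1 and DNA methylation to the bound site. The family grew by tandem duplication, so that neighbours on chromosome 19 are often close relatives, and many of its proteins silence transposable elements.

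The study used OVCAR4, an established cell line of high-grade serous ovarian cancer, and measured its RNA after small interfering RNA (siRNA) against transcription factors. Cells were transfected with 120 nM siRNA and collected 72 hours later, and each of 7 groups had 2 libraries. The siPAX8 group received a pool against PAX8, a paired-box factor of the Müllerian lineage, and the siSOX17 group a pool against SOX17, an HMG-box factor. The siDual group received both of these pools, in amounts of each that the labels do not give. The siMECOM group received a pool against MECOM, which encodes the zinc-finger factor EVI1, and the siWT1 group a pool against the zinc-finger factor WT1. The siNT1 group received a stock pool that targets no gene and the siNT2 group a custom pool of that kind, and these 4 libraries served together as controls. Nothing in the labels says that replicates were separate cultures, so p-values measure the spread between these libraries, which may be technical.

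Coding sequence shows the parts of these genes that the results turn on. For 6 of them the first finger with a canonical linker is given below from GENCODE 29 transcripts, coding strand 5′ to 3′, starting at its first cysteine codon. The capitals mark the codons of the linker that follow the last histidine codon, the stretch that joins a finger to the next.
ZNF433: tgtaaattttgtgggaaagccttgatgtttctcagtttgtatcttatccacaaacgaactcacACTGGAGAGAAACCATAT
ZNF563: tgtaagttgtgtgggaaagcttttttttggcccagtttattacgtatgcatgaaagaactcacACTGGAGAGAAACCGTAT
ZNF799: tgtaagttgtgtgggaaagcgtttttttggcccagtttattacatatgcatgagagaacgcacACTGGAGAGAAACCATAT
ZNF71: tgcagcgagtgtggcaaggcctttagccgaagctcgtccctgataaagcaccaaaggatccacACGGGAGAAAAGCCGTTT
ZNF45: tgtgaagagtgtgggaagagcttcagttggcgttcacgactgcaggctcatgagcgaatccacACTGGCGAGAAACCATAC
ZNF787: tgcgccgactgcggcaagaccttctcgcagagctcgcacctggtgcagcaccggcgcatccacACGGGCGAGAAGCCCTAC
ZNF433, ZNF563 and ZNF799 are neighbours whose RNA was higher after loss of PAX8 or SOX17, ZNF71 and ZNF45 fell most in siWT1 cells, and ZNF787 fell in every knockdown group. The 81 bases of ZNF563 and ZNF799 were 93.8% identical and those of ZNF563 and ZNF433 77.8%, while those of ZNF787 and ZNF563 were 44.4% identical. A read that falls wholly on a stretch identical in several genes cannot be given to one of them. The percentages above do not measure this, since even ZNF563 and ZNF799 differ at places spread along the bases shown. Exact sequence shared between genes is given below.

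The KRAB box is the part through which the protein silences. Its coding stretch is shown for a gene that rose and a gene that fell, coding strand 5′ to 3′, with capitals for the codons from its leucine and tyrosine to its valine and methionine.
ZNF563: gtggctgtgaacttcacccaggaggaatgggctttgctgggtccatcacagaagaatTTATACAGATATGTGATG
ZNF71: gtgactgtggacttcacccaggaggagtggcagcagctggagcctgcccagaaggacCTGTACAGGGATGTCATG
The 75 bases of this pair were 73.3% identical. A protein pattern of the KRAB box was found for 168 of the 197 members and was not matched in 29. It was searched near the start of the longest open reading frame of every protein-coding transcript of the gene. Fingers were counted only in the longest of these frames. The members held a median of 12 finger patterns, from 0 in 1 gene to 31, with a median of 13 in genes with the KRAB pattern and 8 in genes without it. Transcripts with the KRAB pattern were poor in G and C, with a median of 42.2%, against 61.3% in those without it and 49.1% over all protein-coding genes kept by the same CPM limit.

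Libraries held between 40832825 and 49803860 counts. The siRNA targets were lower in their own groups than in the controls: PAX8 stood at 32.8 and 38.3 CPM in siPAX8 cells against 191.8 to 225.1 CPM in the controls, and SOX17 at 15.7 and 13.1 CPM in siSOX17 cells against 103.7 to 119.2 CPM. In siDual cells PAX8 had 52.8 and 50.6 CPM and SOX17 15.9 and 17.7 CPM. MECOM stood at 8.76 and 16.4 CPM in siMECOM cells against 125.1 to 133.1 CPM in the controls. The targets also changed in each other's groups, and all changes that follow were called. MECOM fell to 45.6 and 43.6 CPM in siSOX17 and 47.5 and 51.1 CPM in siDual cells. On the log2 scale MECOM fell by 0.41 in siPAX8 and 0.35 in siWT1 cells, and SOX17 fell by 0.46 in siPAX8 cells. PAX8 fell by 0.83 in siWT1 and rose by 0.40 in siSOX17 cells, and SOX17 rose by 1.05 in siMECOM cells. WT1 fell by 1.03 in siSOX17 and 1.31 in siDual cells. WT1 was near 0 throughout, with 0 and 0.0192 CPM in siWT1 cells and 0.33 to 0.43 CPM in the controls, so the siWT1 group is a pool against a gene these cells hardly express. Of 12 markers of serous ovarian cancer epithelium 11 exceeded 1 CPM in some library, all but WT1, as did 3 of 6 fibroblast markers and all 4 endothelial markers. The fibroblast markers summed to 25.3 to 83.8 CPM in knockdown libraries and 34.9 to 45.1 CPM in the controls, and the endothelial markers to 6.31 to 20.8 CPM and 8.44 to 10.5 CPM, and their part in the results was not tested. RNA of mitochondrially encoded genes took 7.91% to 11.0% of the counts in the 10 knockdown libraries and 5.34% to 6.13% in the 4 controls. With those genes left out of the fit, 80 members were higher and 17 lower in siPAX8, 30 and 51 in siSOX17, 63 and 34 in siDual, 55 and 8 in siMECOM and 11 and 33 in siWT1 cells, to be set beside the counts given below.

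The members were weakly expressed. Set on the length of each gene, as RPKM (CPM per kilobase of gene length, computed here from the count and length columns), their mean over the 14 libraries had a median of 1.05, against 1.91 for 226 kept ZNF genes of other chromosomes and 4.83 for all protein-coding genes kept. Genes with the KRAB pattern had a median of 0.82 RPKM and those without it 6.67 RPKM. The highest levels per length belonged to genes without the pattern: ZNF358 at 55.9 RPKM, ZNF787 at 46.9, ZNF581 at 43.8, ZNF524 at 23.9, ZNF865 at 23.4 and ZNF146 at 22.6. ZNF146 encodes a protein made of fingers alone, and ZNF524 one that binds telomere repeats. Over single libraries ZNF358 ranged from 21.9 to 75.6 RPKM, ZNF787 from 34.3 to 68.9 and ZNF581 from 36.6 to 54.2, so these 3 overlapped. ZNF524, ZNF865 and ZNF146 overlapped one another too, and the highest library of each, at 28.6, 28.9 and 28.4 RPKM, lay below the lowest of ZNF581. Of the 197 members, 136 averaged under 10 CPM in the controls.

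Knockdown of PAX8 was followed by higher RNA of many chromosome 19 ZNF genes and lower RNA of few. Tested with edgeR's quasi-likelihood test over all 21032 genes, with Benjamini-Hochberg adjustment and a limit of 0.05 on the adjusted p, 80 members were higher and 17 lower in siPAX8 cells than in the controls. That is 40.6% and 8.63% of the members, against 26.9% and 25.4% of all genes tested and 31.4% and 31.5% of the 13235 protein-coding genes kept by the same CPM limit. The median log2 fold change of the members was 0.24, and over all genes tested the medians of the 5 knockdown comparisons ran from -0.01 to 0.01. Changes were small: 52 of the 97 called members moved by less than 1.5-fold, while 7 were higher and 2 lower by 2-fold or more. In bulk RNA, fewer cells of a kind and less RNA per cell cannot be told apart. All 97 called members had both siPAX8 libraries beyond all 4 controls. The same share over all called genes was not computed, so this does not set the members apart.

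**Figure D1:**
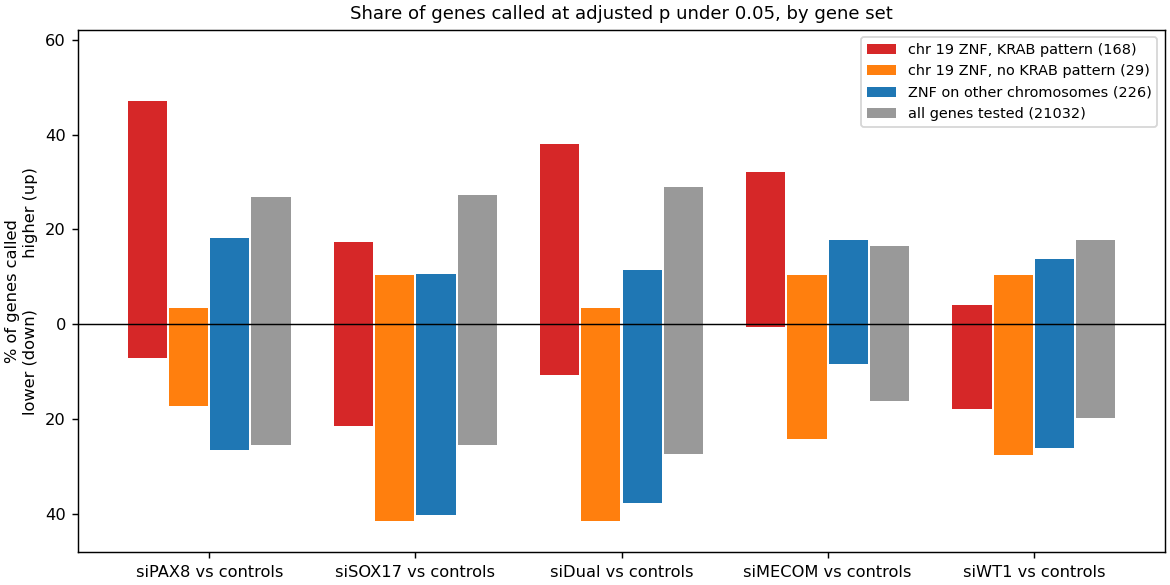
Share of genes called higher (bars above 0) and lower (bars below 0) than the controls at adjusted p under 0.05, in % of each gene set, for the 5 knockdown comparisons. Among chromosome 19 ZNF genes with a KRAB pattern 47.0% were higher in siPAX8 cells and 32.1% in siMECOM cells, against 26.9% and 16.5% of all genes tested.

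Of the 80 members higher in siPAX8 cells 79 had the KRAB pattern, and the other was ZNF329. Among the 168 genes with the pattern 79 were higher and 12 lower, with a median log2 fold change of 0.29. Among the 29 without it 1 was higher and 5 lower, with a median of -0.03. The ZNF genes of other chromosomes leaned the other way, with 41 higher and 60 lower of 226 and a median of -0.03, as did the other protein-coding genes of chromosome 19, with 181 higher and 303 lower of 821. The difference between these sets was not tested.

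The 6 largest increases in siPAX8 cells were those of ZNF429, ZNF433, ZNF610, ZNF563, ZNF135 and ZNF547, all KRAB zinc-finger genes. ZNF433 (chromosome 19, 12014732 to 12035741, hg38, minus strand) had 5.22 and 4.55 CPM in siPAX8 cells, against 1.27, 1.90, 1.78 and 1.45 CPM in the controls. The groups did not overlap, and the log2 fold change was 1.599 ± 0.15 (standard error, adjusted p = 4.37e-08). In this gene 17.6% of the exonic bases also lie in other listed genes, among them its antisense gene ZNF433-AS1, and the sources used here do not say whether counting used the strand. ZNF429 (21496682 to 21556270, plus strand) had 1.06 and 0.825 CPM in siPAX8 cells, against 0.306, 0.235, 0.261 and 0.242 CPM in the controls, a log2 fold change of 1.85 ± 0.28 (adjusted p = 1.68e-05). It is among the 8 members that entered only through knockdown libraries, as is ZNF563. ZNF610 (52336245 to 52367778, plus strand) had 2.44 and 2.36 CPM against 0.731, 1.09, 0.882 and 0.748 CPM, a log2 fold change of 1.47 ± 0.19 (adjusted p = 1.84e-06). It shares no exonic base with another listed gene. ZNF563 rose by 1.34 ± 0.28, ZNF135 by 1.33 ± 0.21 and ZNF547 by 1.15 ± 0.13 on the log2 scale. Of the exonic bases of ZNF135, 32.6% also lie in ZSCAN18.

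The largest decreases in siPAX8 cells were those of ZNF724, ZNF726, ZNF551, ZNF114, ZNF738 and ZNF473. ZNF724 (23221599 to 23250390, minus strand) had 1.74 and 2.25 CPM in siPAX8 cells, against 4.53, 5.28, 5.23 and 5.02 CPM in the controls, a log2 fold change of -1.33 ± 0.18 (adjusted p = 4.95e-06). Of its exonic bases 44.8% also lie in another listed gene, and 7.67% of its 50-base words recur in genes elsewhere. ZNF551 (57681969 to 57717301, plus strand), which shares no such word, had 6.22 and 6.15 CPM against 10.3, 10.9, 9.40 and 10.4 CPM, a log2 fold change of -0.73 ± 0.10 (adjusted p = 3.48e-06). ZNF473, whose protein is part of the machinery that makes the 3′ ends of histone mRNA, had 17.7 and 17.4 CPM in siPAX8 cells, against 26.4, 26.7, 29.3 and 28.2 CPM in the controls, a log2 fold change of -0.65 ± 0.08 (adjusted p = 7.13e-07). In each of the 3 genes the groups stood apart, as the naming rule requires. ZNF726 fell by 1.24, ZNF114 by 0.71 and ZNF738 by 0.66 on the log2 scale. The call of ZNF738 was lost without siPAX8 replicate 2, with a log2 fold change of -0.50 (adjusted p = 0.118).

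**Figure D2:**
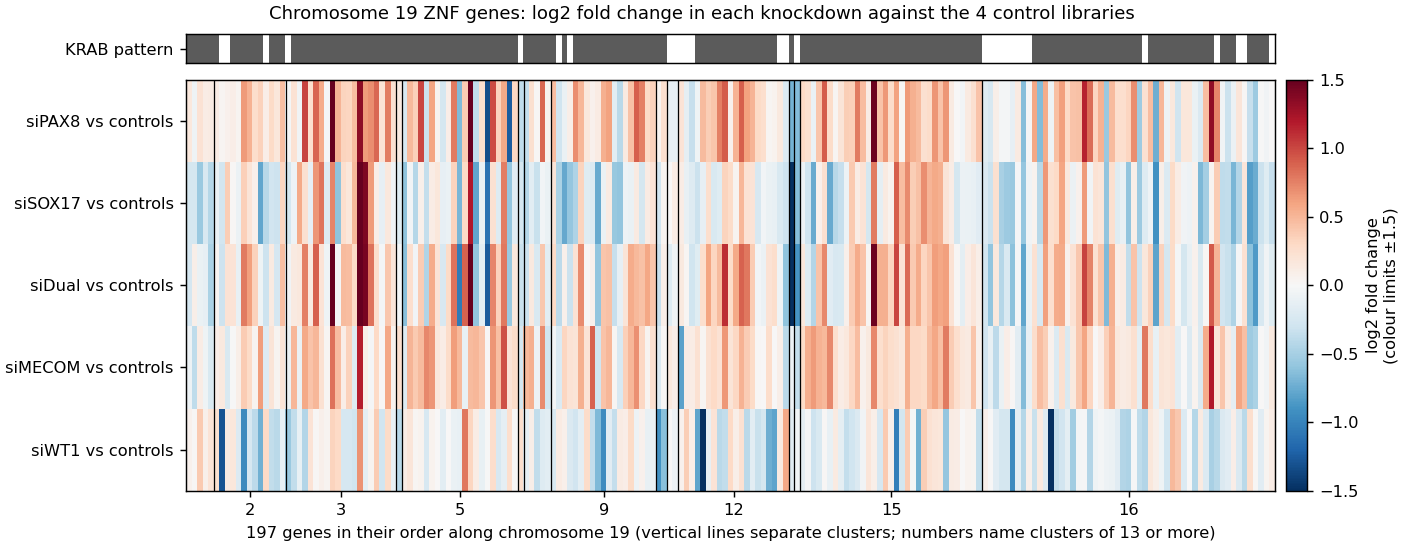
Log2 fold change against the 4 controls (colour, limits at ±1.5) of the 197 genes in their order along chromosome 19, with a row for each knockdown group and a grey strip for the KRAB pattern. The siPAX8, siDual and siMECOM rows are mostly red, with medians of 0.24, 0.15 and 0.20, and the siSOX17 and siWT1 rows mixed, with medians of -0.09 and -0.10.

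In siSOX17 cells the members split. Of the 197 genes 32 were higher (16.2%) and 48 lower (24.4%), where 27.2% of all genes tested were higher and 25.5% lower, and the median log2 fold change was -0.09. With siSOX17 replicate 2 left out 19 were higher, and with siSOX17 replicate 1 left out 31 were lower. Genes with the KRAB pattern gave 29 higher and 36 lower, and genes without it 3 higher and 12 lower, with medians of -0.07 and -0.26. Among the ZNF genes of other chromosomes 24 of 226 were higher and 91 lower, with a median of -0.20. Both siSOX17 libraries lay beyond all 4 controls in 29 of the 32 higher members and 47 of the 48 lower ones. The share over all called genes was not computed here either.

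ZNF563 (12317477 to 12333720, minus strand) had the largest increase in siSOX17 cells, with 1.29 and 1.27 CPM against 0.377, 0.352, 0.220 and 0.396 CPM in the controls. Its log2 fold change was 1.94 ± 0.26 (adjusted p = 4.67e-06), and the groups did not overlap, as the naming rule requires. ZNF563 entered only through knockdown libraries, as did ZNF429 and ZNF681. Its neighbour ZNF799 (12390016 to 12401271, minus strand) had 4.40 and 3.90 CPM against 1.70, 1.64, 1.34 and 1.61 CPM, a log2 fold change of 1.41 ± 0.16 (adjusted p = 6.74e-07). Of the 50-base words of ZNF799, 17.3% recur in other genes, most of all in ZNF443, so its count is uncertain. ZNF83 (52594060 to 52690496, minus strand), better expressed, had 22.6 and 24.6 CPM in siSOX17 cells, against 11.8, 13.4, 12.3 and 13.4 CPM in the controls, a log2 fold change of 0.89 ± 0.10 (adjusted p = 3.21e-07). ZNF429, ZNF610 and ZNF681 rose by 1.20 ± 0.32, 0.78 ± 0.21 and 0.76 ± 0.28 on the log2 scale. These 3 calls each rested on single libraries: adjusted p was 0.151 for ZNF429 and 0.437 for ZNF681 without siSOX17 replicate 1, and 0.0512 for ZNF610 without siSOX17 replicate 2. The call of ZNF681 was also lost without siNT1 replicate 1, siNT2 replicate 1 or siNT2 replicate 2, at 0.0703, 0.0591 and 0.0504, and with DESeq2 or siNT1 alone as the control, at 0.065 and 0.0966.

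ZNF114 fell most in siSOX17 cells. This KRAB gene with 3 finger patterns (48270102 to 48287608, plus strand) had 3.33 and 3.45 CPM in siSOX17 cells, against 12.4, 13.6, 9.10 and 11.4 CPM in the controls, a log2 fold change of -1.77 ± 0.16 (adjusted p = 2.33e-08). It fell less in siPAX8 cells, to 6.22 and 7.93 CPM, and the difference between siPAX8 and siSOX17 cells was 1.06 ± 0.18 (adjusted p = 0.000113). ZNF724 fell by 1.11, ZNF551 by 0.91, ZNF584 by 0.83, ZNF100 by 0.78 and ZNF426 by 0.78 on the log2 scale. For ZNF426 the value without siSOX17 replicate 2 was -0.50 (adjusted p = 0.149), which ended its call.

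With both pools together fewer members were lower than among all genes, while the share higher was near the background. In siDual cells 65 of the 197 members were higher (33.0%) and 30 lower (15.2%), against 28.9% and 27.3% of all genes tested and 33.0% and 33.4% of the protein-coding genes kept, and the median log2 fold change was 0.15. Without siDual replicate 2, 19 members were lower. Of the 65 higher genes 64 had the KRAB pattern, the exception again being ZNF329, and of the 30 lower genes 18 had it. ZNF429 reached 1.46 and 1.13 CPM in siDual cells, against 0.235 to 0.306 CPM in the controls, a log2 fold change of 2.30 ± 0.27 (adjusted p = 6.5e-07). ZNF433 had 5.08 and 5.31 CPM in siDual cells, against 1.27 to 1.90 CPM in the controls, a log2 fold change of 1.69 ± 0.15 (adjusted p = 1.9e-08). Both genes stood clear of all controls, as the naming rule requires. ZNF429, and ZNF563 given next, entered only through knockdown libraries, so their increases follow in part from the rule for members. ZNF563, ZNF610, ZNF799 and ZNF223 rose by 1.68, 1.47, 1.43 and 1.10 on the log2 scale, and 45.4% of the exonic bases of ZNF223 also lie in another listed gene. ZNF114 fell to 2.42 and 3.42 CPM, a log2 fold change of -1.97 ± 0.16 (adjusted p = 4.76e-09), followed by ZNF724 at -1.26, ZNF738 at -1.06, ZNF473 at -0.89, ZNF132 at -0.85 and ZNF551 at -0.79. The call of ZNF132 was lost without siDual replicate 1 (log2 fold change -0.67, adjusted p = 0.117) and with siNT2 alone as the control (adjusted p = 0.194).

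Knockdown of MECOM also moved these genes mainly upward. In siMECOM cells 57 of the 197 members were higher (28.9%) and 8 lower (4.06%), where 16.5% of all genes tested were higher and 16.1% lower, and the median log2 fold change was 0.20. Without siMECOM replicate 2 the counts were 31 and 5. Of the 57 higher genes 54 had the KRAB pattern, the others being ZNF134, ZNF497 and ZNF837, and of the 8 lower genes ZNF584 alone had it. The ZNF genes of other chromosomes leaned the same way, with 40 higher and 19 lower of 226 and a median of 0.09. Among the other protein-coding genes of chromosome 19, 55 were higher and 263 lower of 821. ZNF135 had 1.87 and 2.07 CPM in siMECOM cells, against 0.731, 1.08, 0.862 and 0.748 CPM in the controls, a log2 fold change of 1.20 ± 0.21 (adjusted p = 0.000197). ZNF829 (36888124 to 36916291, minus strand) had 2.33 and 2.26 CPM against 1.51, 1.23, 1.28 and 0.990 CPM, a log2 fold change of 0.88 ± 0.18 (adjusted p = 0.000994). The groups did not overlap in either gene, as the naming rule requires. ZNF563 and ZNF681, given next, entered only through knockdown libraries. ZNF563, ZNF681, ZNF433 and ZNF134 rose by 1.17, 0.95, 0.81 and 0.79, and the call of ZNF681 was lost without either siMECOM replicate, at adjusted p of 0.0535 and 0.0643.

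Of the 8 members lower in siMECOM cells, 7 lacked the KRAB pattern. ZNF575 (43525497 to 43536130, plus strand) had 11.8 and 10.2 CPM in siMECOM cells, against 19.1, 17.1, 20.7 and 19.9 CPM in the controls, a log2 fold change of -0.80 ± 0.11 (adjusted p = 9.41e-06). In the siPAX8, siSOX17, siDual and siWT1 libraries it ranged from 18.8 to 24.2 CPM and was not called. ZNF787, ZNF584, ZNF296, ZNF524 and ZNF473 stood at -0.66, -0.54, -0.41, -0.39 and -0.36 on the log2 scale. The call of ZNF524 was lost without siMECOM replicate 2 (adjusted p = 0.131). That of ZNF296, a gene known in mouse as part of the pluripotency network, was lost without either siMECOM replicate, siNT1 replicate 1 or siNT2 replicate 2, at adjusted p from 0.0532 to 0.188, and with siNT2 alone as the control (0.0869).

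**Figure D3:**
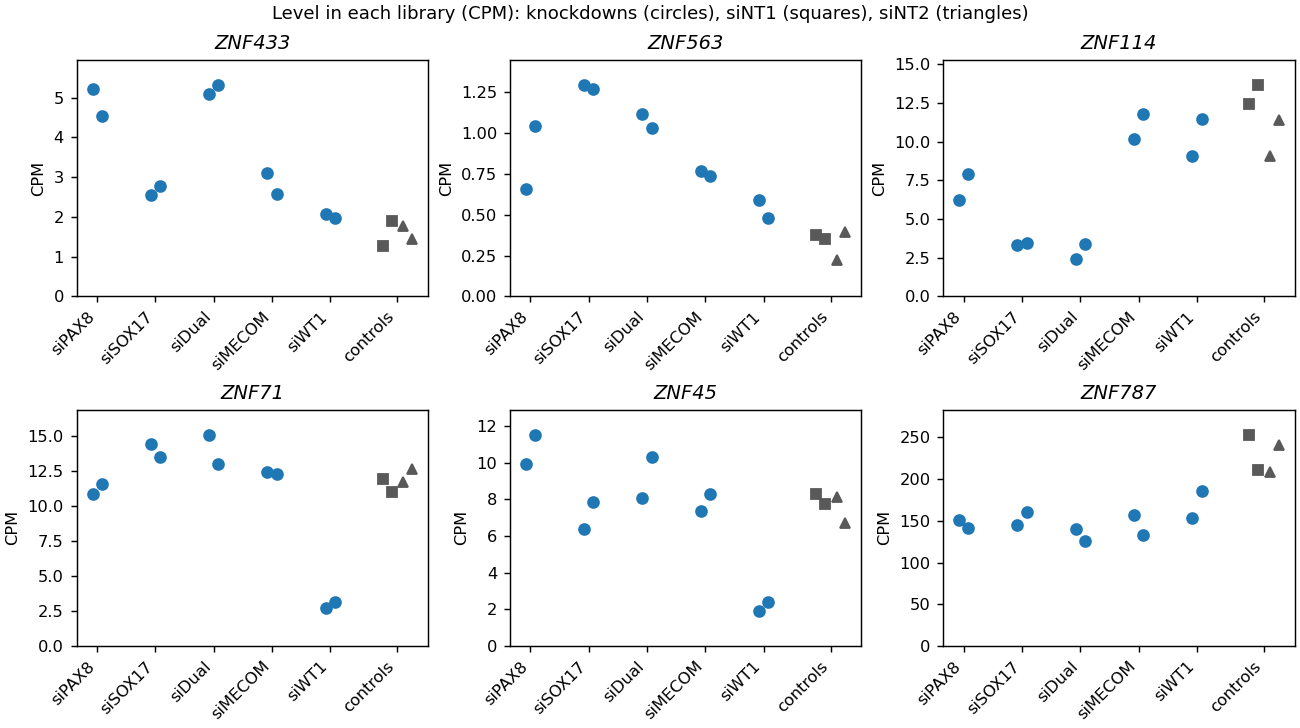
Level of 6 genes in each library, in CPM, with the knockdown groups as circles, siNT1 as squares and siNT2 as triangles. ZNF433 is high in the siPAX8 and siDual libraries, ZNF114 low in siSOX17 and siDual, ZNF71 and ZNF45 low in siWT1, and ZNF787 lower in all 10 knockdown libraries, at 125.7 to 185.3 CPM, than in the controls, at 208.9 to 252.9 CPM.

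The siWT1 pool gave the opposite picture, with few increases and some deep decreases. In siWT1 cells 10 of the 197 members were higher (5.08%) and 38 lower (19.3%), against 17.7% and 19.8% of all genes tested, and the median log2 fold change was -0.10. The share lower was near that of all genes. Leaving out siWT1 replicate 1 gave 6 higher and 22 lower, leaving out siWT1 replicate 2 gave 5 higher, and with either siNT1 or siNT2 alone as the control 6 were higher. ZNF71 (56595264 to 56626481, plus strand) had 2.74 and 3.14 CPM in siWT1 cells, against 11.88, 10.98, 11.66 and 12.59 CPM in the controls, a log2 fold change of -1.999 ± 0.11 (adjusted p = 9.57e-11). ZNF45 (43912629 to 43935278, minus strand) had 1.91 and 2.41 CPM against 8.27, 7.74, 8.16 and 6.73 CPM, a log2 fold change of -1.84 ± 0.15 (adjusted p = 2.45e-08). ZNF358, the most abundant member per length, had 45.4 and 61.4 CPM against 124.0, 128.4, 118.0 and 155.4 CPM, a log2 fold change of -1.30 ± 0.13 (adjusted p = 2.21e-07). Neither ZNF71 nor ZNF45 was lower in another knockdown group, where the 8 other knockdown libraries held 10.81 to 15.04 CPM of ZNF71 and 6.39 to 11.5 CPM of ZNF45. Of the exonic bases of ZNF358, 34.4% also lie in other listed genes.

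ZNF83 turned in opposite directions. It had 5.79 and 6.68 CPM in siWT1 cells, against 11.8 to 13.4 CPM in the controls (log2 fold change -1.03 ± 0.11, adjusted p = 6.96e-07), while it was higher in siPAX8, siSOX17 and siDual cells. ZNF420, whose protein (Apak) holds back p53, fell by 0.95 to 1.39 and 1.69 CPM, against 2.43 to 3.60 CPM in the controls (adjusted p = 0.00069). ZNF699 also fell by 0.95, a call lost without siWT1 replicate 1, siWT1 replicate 2, siNT1 replicate 2 or siNT2 replicate 1, at adjusted p from 0.0507 to 0.166. ZNF699 and ZNF493 too entered only through knockdown libraries. The increases were slight: ZNF493 by 0.80, ZNF296 by 0.58, ZNF552 by 0.49, ZNF587B by 0.40, ZNF808 by 0.39 and ZNF600 by 0.38 on the log2 scale. ZNF808 encodes a KRAB protein needed for development of the human pancreas. The calls of ZNF493, ZNF296, ZNF587B and ZNF808 were each lost without siWT1 replicate 2, at adjusted p from 0.0574 to 0.255, and those of ZNF493 and ZNF587B also without siWT1 replicate 1, at 0.062 and 0.106. Without siNT1 replicate 1 ZNF587B and ZNF808 stood at 0.0583 and 0.117, and without siNT2 replicate 2 ZNF808 stood at 0.0613. With siNT2 alone as the control ZNF587B, ZNF808 and ZNF699 stood at 0.0647, 0.109 and 0.0804. With siNT1 alone ZNF493 and ZNF808 stood at 0.0955 and 0.0503, and with DESeq2 ZNF493 stood at 0.0523.

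The genes that fell in siWT1 cells can be read at the level of sequence. An earlier search of these same libraries had found the hexamer CCACAC more often in transcripts that were lower in siWT1 cells, so the counts that follow are no independent support for it. In many members the hexamer spans the start of a linker, where CAC codes for the last histidine of a finger and the next codon for threonine. Of 288 copies in the open reading frames of the 197 members 203 (70.5%) lay in such a histidine, threonine and glycine stretch, and 109 members held at least 1 copy. The first copy in the longest protein-coding transcript (GENCODE 29, chromosome 19) of 4 of the genes that fell is shown within 30 bases, 5′ to 3′, capitals marking the hexamer.
ZNF71: gcaccaaaggatCCACACgggagaaaagcc
ZNF45: tggggcatcagtCCACACcagatggcctac
ZNF358: gcaccgtggcatCCACACtggggcgcggcc
ZNF83: acatcagagaatCCACACtggagagaaacc
The longest transcript of ZNF71 held 9 copies, that of ZNF45 11, that of ZNF83 3 and that of ZNF358 2, while that of ZNF420 held none. Over the whole longest transcript 34 of the 38 members lower in siWT1 cells held the hexamer (89.5%), against 97 of 149 not called (65.1%) and 7 of 10 higher (70.0%). Over all protein-coding genes tested the hexamer was in 2485 of 3314 lower, 4665 of 8332 not called (56.0%) and 1388 of 2862 higher (48.5%). Members with 2 or 3 copies had a median log2 fold change of -0.17 in siWT1 cells and those with 4 or more -0.16, against -0.02 with no copy and 0.09 with 1 copy. In siPAX8 cells the same classes had medians of 0.09, 0.43, 0.24 and 0.24. Lower genes also had longer transcripts, with a median of 4039 bases against 3888 in those not called, and the part of either in the decreases was not tested. The sequences of the siRNAs were not used here.

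Only a few members moved the same way in all 5 knockdown groups. ZNF600 (52764195 to 52786791, minus strand) had 22.4 and 22.3 CPM in siPAX8, 21.9 and 25.1 in siSOX17, 25.04 and 26.51 in siDual, 20.2 and 21.3 in siMECOM and 18.2 and 19.2 CPM in siWT1 cells, against 14.2, 15.6, 12.2 and 15.4 CPM in the controls. Its log2 fold changes ran from 0.38 to 0.85, and no knockdown library overlapped the controls. ZNF888, in the same cluster, rose by 0.23 to 0.51. Of the 50-base words of ZNF600 10.0% recur in other genes, and of those of ZNF888 more. The siWT1 call of ZNF888 was lost without siWT1 replicate 1 or 2, siNT1 replicate 1 or siNT2 replicate 1, at adjusted p from 0.0561 to 0.19, and with no filter (0.0848) or with siNT1 (0.0612) or siNT2 (0.0786) alone as the control. ZNF787 (56087366 to 56121280, minus strand) was the only member lower in all 5, with log2 fold changes from -0.43 to -0.78 and 125.7 to 185.3 CPM in the 10 knockdown libraries, against 208.9 to 252.9 CPM in the controls. Its siWT1 call was lost without siWT1 replicate 1 (adjusted p = 0.0707). The 5 comparisons share their controls. Of the 197 members 30 were called in no knockdown group.

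Promoter sequence is shown for ZNF83, which moved in opposite directions, and ZNF787, which fell in every knockdown group. The 250 bases before the first listed start are given from RefSeq (GRCh38.p14), both on the minus strand and written 5′ to 3′, with CG pairs in capitals, for ZNF83 at chr19:52690497-52690746 and for ZNF787 at chr19:56121296-56121545.
ZNF83: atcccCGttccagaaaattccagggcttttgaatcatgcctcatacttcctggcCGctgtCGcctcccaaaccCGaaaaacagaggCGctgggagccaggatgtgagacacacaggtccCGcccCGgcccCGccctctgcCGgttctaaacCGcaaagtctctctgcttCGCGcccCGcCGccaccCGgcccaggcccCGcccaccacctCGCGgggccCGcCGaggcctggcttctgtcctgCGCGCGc
ZNF787: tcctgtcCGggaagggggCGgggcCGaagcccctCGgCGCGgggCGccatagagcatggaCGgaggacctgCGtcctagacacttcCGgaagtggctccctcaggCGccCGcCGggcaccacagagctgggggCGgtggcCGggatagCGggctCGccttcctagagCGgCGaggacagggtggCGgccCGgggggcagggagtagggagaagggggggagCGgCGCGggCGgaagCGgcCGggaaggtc
They hold 23 and 27 CG pairs, with 67.2% and 74.8% G and C. RefSeq promoters, here 300 bases reaching 50 past the start, were matched for 177 of the 197 members, with a median of 21 CG pairs against 14 over all 35116 promoters of the table. In that same window ZNF83 held 29 and ZNF787 32, so both lie above the median of the members. ACAAT, the core that SOX factors bind, searched on both strands as ACAAT or ATTGT, was in 20.9% of the members' promoters and 27.4% of all promoters. It was in 7 of 26 promoters of members higher in siSOX17 cells (26.9%), 8 of 42 of those lower and 22 of 109 of those not called (20.2%).

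Summed over the 168 genes with the KRAB pattern, the level was 1418.6 and 1468.8 CPM in siPAX8 cells, 1203.3 and 1229.2 in siSOX17 cells, 1345.4 and 1391.0 in siDual cells, 1371.4 and 1436.6 in siMECOM cells and 1158.5 and 1147.6 CPM in siWT1 cells, against 1195.0 to 1254.3 CPM in the controls. The siPAX8, siDual and siMECOM libraries thus all lay above the controls, the siWT1 libraries below them and the siSOX17 libraries within their range. Summed over the 29 genes without the pattern, the 10 knockdown libraries ran from 945.5 to 1188.3 CPM and the controls from 1190.6 to 1324.7 CPM. A few abundant genes, ZNF787 and ZNF358 among them, carry much of that second sum.

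**Figure D4:**
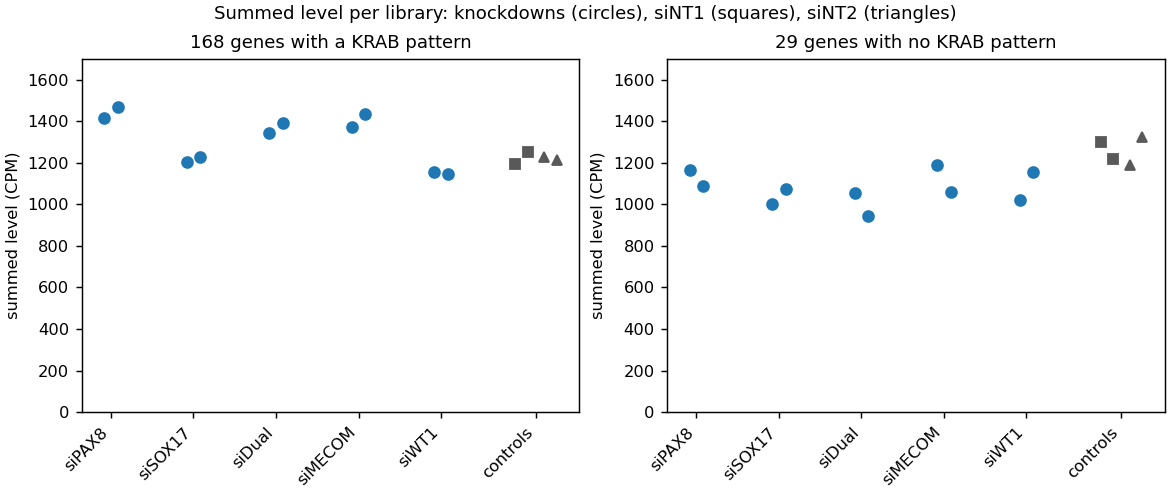
Summed level per library, in CPM, of the 168 genes with a KRAB pattern (left) and the 29 without (right), with knockdown libraries as circles, siNT1 as squares and siNT2 as triangles. On the left the siPAX8, siDual and siMECOM libraries lie at 1345.4 CPM or more and the controls at 1254.3 CPM or less, and on the right all 10 knockdown libraries lie below all 4 controls.

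The direct comparison of the single knockdowns set siPAX8 above siSOX17 cells. Of the 197 members 78 were higher (39.6%) and 5 lower (2.54%) in siPAX8 than in siSOX17 cells, where 17.6% of all genes tested were higher and 19.8% lower, and the median log2 difference was 0.30. Without siPAX8 replicate 2, 49 were higher, without siPAX8 replicate 1, 1 was lower, and without either siSOX17 replicate 3 were lower. ZNF135 had 1.996 and 2.340 CPM in siPAX8 cells and 0.895 and 0.875 CPM in siSOX17 cells, a log2 difference of 1.29 ± 0.26 (adjusted p = 0.000527). ZNF529 had 2.10 and 2.67 CPM in siPAX8 cells and 1.22 and 0.902 CPM in siSOX17 cells, a difference of 1.16 ± 0.24 (adjusted p = 0.000803), and ZNF426 differed by 1.13 ± 0.25. In none of the 3 did the groups overlap. ZNF799, ZNF823 and ZNF611 were lower in siPAX8 cells, by log2 differences of -0.77, -0.61 and -0.44. The call of ZNF799 was lost without siPAX8 replicate 1 (adjusted p = 0.0652), and that of ZNF611 also without either siSOX17 replicate, at adjusted p of 0.0652 and 0.167, while without siPAX8 replicate 1 it stood at 0.338.

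Adding the second pool changed fewer members. PAX8 itself was higher in siDual than in siPAX8 cells, by a log2 difference of 0.54 (edgeR's quasi-likelihood test, adjusted p = 0.000124). Its unequal loss and the added pool cannot be told apart. Between siDual and siPAX8 cells 3 members were higher (1.52%) and 14 lower (7.11%) in siDual cells, against 11.0% and 8.55% of all genes tested. The lower count ran from 4, without siDual replicate 1 or siPAX8 replicate 2, through 6 without siDual replicate 2 and 8 without siPAX8 replicate 1, to 20, and the higher count was 0 without siPAX8 replicate 1. ZNF114, ZNF550 and ZNF77 were lower in siDual cells, by log2 differences of -1.26, -0.69 and -0.60, and ZNF799, ZNF83 and ZNF71 higher, by 0.79, 0.40 and 0.32. Leaving out 1 library of either group ended the calls of ZNF550, ZNF77, ZNF799, ZNF83 and ZNF71 in at least 1 case, with adjusted p up to 0.339, and that of ZNF114 in none. For ZNF71 the call was also lost without siMECOM replicate 1 or 2, siNT1 replicate 1 or 2, siNT2 replicate 2 or siSOX17 replicate 1 or 2, at adjusted p from 0.05 to 0.0704, and with DESeq2 (0.0503), no filter (0.151) or mitochondrially encoded genes left out (0.0638).

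Between siDual and siSOX17 cells 23 members were higher (11.7%) and 1 lower (0.508%) in siDual cells, where 7.85% of all genes tested were higher and 7.82% lower. All 24 had the KRAB pattern. The higher count was 10, 7, 10 and 11 without siDual replicate 1, siDual replicate 2, siSOX17 replicate 1 and siSOX17 replicate 2. ZNF433 had 5.08 and 5.31 CPM in siDual cells and 2.56 and 2.79 CPM in siSOX17 cells, a log2 difference of 0.96 ± 0.18 (adjusted p = 0.000871). ZNF429 differed by 1.09 and ZNF135 by 0.88, calls that were lost without siDual replicate 1 (ZNF429, adjusted p = 0.135), siDual replicate 2 (ZNF135, 0.447), siSOX17 replicate 1 (ZNF135, 0.119) or siSOX17 replicate 2 (0.192 and 0.135). With DESeq2 they were lost too, at 0.0704 and 0.0615. ZNF429 is among the members that entered only through knockdown libraries. ZNF823, the lower gene, differed by -0.41, a call lost without siDual replicate 1 or siSOX17 replicate 2, at adjusted p of 0.234 and 0.205, so that without siSOX17 replicate 2 no member was lower.

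Additivity was tested as the log2 fold change in siDual cells minus the sum of those in siPAX8 and siSOX17 cells, where 0 means that the single effects add up on the log2 scale. PAX8 was less depleted in siDual than in siPAX8 cells, by a log2 difference of 0.54, and this cannot be told apart from a combined effect. The additivity value was above 0 in 10 members (5.08%) and below 0 in 13 (6.60%), against 12.0% and 13.0% of all genes tested, with a median of -0.03. The count above 0 was 6 without siDual replicate 1 or siPAX8 replicate 1 and 5 without siSOX17 replicate 1. That below 0 was 5 without siDual replicate 1 or siSOX17 replicate 2, 6 without siPAX8 replicate 2 and 8 without siDual replicate 2. ZNF563 stood at 1.68 in siDual, 1.34 in siPAX8 and 1.94 in siSOX17 cells, so that the additivity value was -1.60 (adjusted p = 0.00442). Without siPAX8 replicate 2 it was -1.24 (adjusted p = 0.0526), which ended the call. ZNF724, at -1.26, -1.33 and -1.11 in the same order, was 1.18 above it (adjusted p = 0.00519). ZNF566 differed from this pattern, since it fell by 0.76 in siSOX17 cells, was not called in siPAX8 or siDual cells at -0.10 and 0.08, and stood 0.94 above the sum (adjusted p = 0.00327).

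Between the control pools no member was called higher or lower in siNT1 than in siNT2 cells by edgeR's quasi-likelihood test or by DESeq2, where 0.242% and 0.0571% of all genes tested were. At an unadjusted p under 0.05 there were 7 members (3.55%), against 7.65% of all genes tested, and the smallest adjusted p of a member was 0.496.

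Calls were also counted by cluster along the chromosome, as a description. Of all genes tested 26.9% were higher and 25.4% lower in siPAX8 cells, and 27.2% and 25.5% in siSOX17 cells. The shares were 28.9% and 27.3% in siDual, 16.5% and 16.1% in siMECOM and 17.7% and 19.8% in siWT1 cells. Splitting the 246 genes wherever neighbouring starts lay more than 1 Mb apart gave 16 clusters, 7 of them with 13 or more members. Cluster 3, from ZNF653 to ZNF791 (11483427 to 12640098), kept 20 of its 25 genes, of which 14 were higher and none lower in siPAX8 cells, with a median log2 fold change of 0.49. It holds ZNF433, ZNF563 and ZNF799, and in siSOX17 cells 8 of its genes were higher and 1 lower. ZNF563 here, and ZNF429 in cluster 5 below, entered only through knockdown libraries. Increases of such members follow in part from the rule for members, and the cluster counts include them. Cluster 15, from ZNF175 to ZNF331 (51571298 to 53580269), kept 33 of 39 genes, all with the KRAB pattern. Of these, 20 were higher in siPAX8, 18 in siDual and 19 in siMECOM cells, against none, 1 and none lower. Cluster 5, from ZNF101 to ZNF254 (19668796 to 24129961), kept 21 of 37 genes, the smallest share of the 7. In siMECOM cells 10 of them were higher and none lower, with a median of 0.45, whereas in siPAX8 cells 8 were higher and 4 lower, with ZNF724, ZNF726 and ZNF738 among those lower.

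Cluster 16, at the end of the long arm from ZNF628 to ZNF446 (55476332 to 58481230), was the largest, with 53 of 59 genes kept. It gave 17 higher and 7 lower in siPAX8 cells and 7 higher and 20 lower in siSOX17 cells, and it holds ZNF787, ZNF581 and ZNF524, which lack the KRAB pattern, as well as ZNF71. In siWT1 cells cluster 2, from ZNF557 to ZNF846 (7069444 to 9793180), had 7 of 13 members lower and none higher, with a median of -0.25. Whether clusters differ was not tested, and members of 1 cluster share sequence, so they are not independent.

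**Figure D5:**
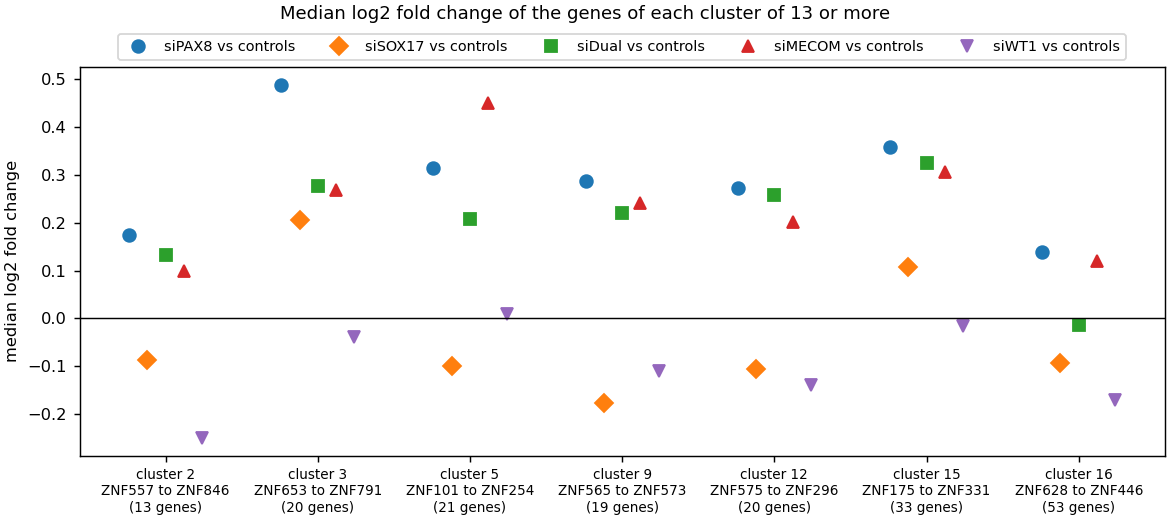
Median log2 fold change of the genes of each of the 7 clusters with 13 or more genes, in their order along chromosome 19, for the 5 knockdown comparisons. The siPAX8 medians are above 0 in all 7 clusters, from 0.14 in cluster 16 to 0.49 in cluster 3, and the siSOX17 medians are above 0 in clusters 3 and 15, at 0.21 and 0.11.

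Features of the genes went with their responses as follows. In siPAX8 cells 21 of the 38 members with 17 or more finger patterns were higher and 1 lower. Of the 41 with fewer than 9, 10 were higher and 6 lower. In siSOX17 cells the same classes gave 7 higher and 4 lower, and 5 higher and 18 lower. Of all genes tested 26.9% were higher and 25.4% lower in siPAX8 cells, and 27.2% and 25.5% in siSOX17 cells. The KRAB pattern was in 35 of those 38 members and in 26 of those 41. The parts of finger number and of the KRAB pattern were not tested. By level, 43 of 98 members under 1 RPKM were higher and 5 lower in siPAX8 cells. From 1 to 3 RPKM 21 of 54 were higher and 6 lower, and at 3 RPKM or more 16 of 45 were higher and 6 lower. In siMECOM cells 7 of the 8 lower genes averaged 3 RPKM or more. Base composition moves with these classes. Of the 86 members with 40 to 45% G and C 47 were higher in siPAX8 cells (54.7%), against 35.6% of all 2735 protein-coding genes kept with that composition. In the neighbouring classes the gap was smaller, and in the last of them it was turned round: 37.5% of 48 members against 34.8% up to 40%, 40.6% of 32 against 34.1% from 45 to 50%, and 2 of 8 against 29.7% from 50 to 55%. In siMECOM cells 33.3%, 37.2% and 15.6% of the members were higher in the 3 lowest classes, against 21.4%, 21.7% and 21.2% of all such genes. Of the 23 members with over 55% G and C none was higher and 3 were lower in siPAX8 cells, against 26.7% and 35.7% of 4199 genes. The part of base composition in the results was not tested.

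Shared sequence limits what single counts mean. Of the 197 members 115 share exonic bases with another listed gene, 21 of them over 20% of their exonic bases, and 11 share over 10% of their 50-base words with genes elsewhere. Of 39 members with the KRAB pattern, under 1% shared words and under 5% shared exonic bases, a class set after the values were seen, 19 were higher and 4 lower in siPAX8 cells, with a median log2 fold change of 0.33, and 11 were higher and 1 lower in siMECOM cells. Of 27 members with under 0.5% shared words and no shared exonic base, 17 of them with the KRAB pattern, 7 were higher and 4 lower in siPAX8 cells (median 0.04), none higher and 10 lower in siSOX17 cells (median -0.16), 6 higher and 8 lower in siDual cells (median -0.11), 6 higher and 3 lower in siMECOM cells (median 0.04) and 2 higher and 10 lower in siWT1 cells (median -0.23). In this class the share higher in siPAX8 cells, 25.9%, was near that of all genes tested, and the siDual balance was the reverse of that over all members.

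Most of a list of 37 genes whose proteins take part in silencing by KRAB zinc fingers had lower RNA where PAX8 or SOX17 was knocked down. In siPAX8 cells 25 were lower and 5 higher, in siSOX17 cells 27 lower and 2 higher and in siDual cells 24 lower and 2 higher, with median log2 fold changes of -0.30, -0.25 and -0.31. The lower genes are 67.6%, 73.0% and 64.9% of the list, against 25.4%, 25.5% and 27.3% of all genes tested. In siMECOM cells 9 were lower and 4 higher, and in siWT1 cells 7 lower and 6 higher, where the 18.9% lower is near the 19.8% of all genes. TRIM28, the co-repressor that KRAB boxes bind, had 996.9 and 925.8 CPM in siPAX8, 1146.0 and 1241.0 in siSOX17 and 1043.0 and 982.7 CPM in siDual cells, against 1683.0, 1530.0, 1489.0 and 1708.0 CPM in the controls. These 6 libraries lay below all controls, with log2 fold changes of -0.74 ± 0.09 in siPAX8, -0.42 ± 0.09 in siSOX17 and -0.66 ± 0.09 in siDual cells (adjusted p = 7.6e-07, 0.000361 and 2.45e-06). In siMECOM and siWT1 cells TRIM28 ranged from 1401.0 to 1622.0 CPM and was not called. SETDB1 fell by 0.24 in siPAX8, 0.19 in siSOX17 and 0.31 in siDual cells and rose by 0.34 in siWT1 cells.

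The largest decreases of this list in siPAX8 cells were those of UHRF1, which guides maintenance DNA methylation, DNMT3B, a de novo DNA methyltransferase, and SUV39H1, a histone H3 lysine methyltransferase. UHRF1 had 2.10 and 3.08 CPM in siPAX8 cells, against 14.7, 13.8, 15.1 and 10.0 CPM in the controls, a log2 fold change of -2.37 ± 0.20 (adjusted p = 9.18e-09). In siPAX8 cells DNMT3B fell by 1.78 and SUV39H1 by 1.24, while KIAA1551 (RESF1), a retroelement silencing factor, fell by 0.86 in siPAX8, 1.44 in siSOX17 and 1.63 in siDual cells. UHRF1, KIAA1551 and SUV39H1 had the largest decreases of the list in siSOX17 and in siDual cells. There UHRF1 fell by 1.75 and 2.18 and SUV39H1 by 1.16 and 1.29. ZFP57, a KRAB zinc-finger gene outside chromosome 19 that guards imprinted methylation, went the other way. It had 2.02 and 2.38 CPM in siPAX8, 0.871 and 0.849 in siSOX17 and 1.14 and 1.76 CPM in siDual cells, against 0.0440 to 0.0707 CPM in the controls, with log2 fold changes of 5.18 ± 0.32, 3.83 ± 0.38 and 4.59 ± 0.34 (adjusted p = 7.92e-11, 9.21e-08 and 1.21e-09). MORC3, an ATPase of silent chromatin, rose by 0.34, 0.37 and 0.39 in the same 3 groups and by 0.23 in siWT1 cells. DNMT3A rose by 0.32 in siPAX8 cells. In siMECOM cells DNMT3B, CHD3 and UHRF1 fell by 0.76, 0.52 and 0.51, and CBX5, KIAA1551 and TRIM24 rose by 0.27, 0.27 and 0.26. In siWT1 cells DNMT3A, CBX5 and DNMT3B fell by 0.75, 0.68 and 0.46, and ATF7IP2, MPHOSPH8 and SETDB1 rose by 0.52, 0.36 and 0.34.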

How the data were processed

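RNA of OVCAR4 cells was sequenced in 14 libraries, 2 for each of 7 siRNA groups. The authors deposited whole-number counts per gene. The submitters' processing notes name STAR 2.5.1b, featureCounts 1.6.3 and the build hg38, while strand setting and annotation release are not given in the sources used here. Gene symbols came from GENCODE release 29, which matched 57881 of the 58219 gene identifiers. The members, the gene lists and the rule for named genes were chosen with earlier results of these data known.

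Counts were tested in R 4.3.3 with edgeR 4.0.16 (quasi-likelihood test, TMM scaling, Benjamini-Hochberg adjustment over 21032 genes that passed a minimum count of 10 and a minimum total of 15), in 1 model with a coefficient per group and the 4 siNT libraries averaged as the control. A call needed an adjusted p under 0.05, standard errors are the fold change over the root of F, and limma 3.58.1 and DESeq2 1.42.0 were also loaded. CPM uses TMM-scaled library sizes, except in the rule for members, and RPKM also divides by the deposited length. The biological coefficient of variation was 7.57% and replicates differed by more than sampling noise, with a chi-square per degree of freedom from 9.84 to 19.2. Tested on simulated data for siPAX8 over 20395 genes, the fit called 79 of 96 genes changed by 2-fold, 95 of 100 changed by 4-fold and 13 of 20199 unchanged ones. The simulated data left most genes unchanged, whereas 10989 of 21032 genes were called in the real siPAX8 comparison. They held no change under 2-fold, so they do not cover the small changes of most called members.

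Named are the 6 largest called changes per direction for each knockdown whose libraries lie beyond all controls, the 3 largest for other comparisons, the 6 highest levels, members called one way in all 5 knockdowns, genes next to the CPM limit, and the 3 largest changes per direction of the silencing list. Fingers and linkers were matched as patterns in the translated longest open reading frame of each gene in GENCODE 29. The KRAB box was matched near the start of the longest frame of any protein-coding transcript of the gene. A missing pattern does not show that the domain is absent. Shared sequence was measured as 50-base words found in more than 1 gene, in place of protein identity. Alternatives were DESeq2, no filter, a limit of 5 CPM, either control pool alone, a replicate block, leaving out mitochondrially encoded genes and leaving out each library.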

Additional observations from a re-analysis of the deposited data

Results flagged for a closer look

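For 14 of the 47 named members the effect of the combined pools differed from the sum of the single effects on the log2 scale, by edgeR's quasi-likelihood test of that difference with Benjamini-Hochberg adjustment. Of all 197 members 10 lay above the sum and 13 below it, smaller shares than the 12.0% and 13.0% of all genes tested. ZNF726, ZNF724, ZNF566, ZNF563, ZNF547 and ZNF44 were named for their values in this same test, so the count of 14 is a description. PAX8 was also less depleted in siDual than in siPAX8 cells. In 8 of them siDual cells lay above the sum: ZNF726 by 1.26 ± 0.43 (standard error, adjusted p = 0.0353), ZNF724 by 1.18 ± 0.29 (0.00519), ZNF566 by 0.94 ± 0.22 (0.00327), ZNF551 by 0.85 ± 0.15 (0.000368), ZNF584 by 0.56 ± 0.12 (0.00206), ZNF787 by 0.44 ± 0.15 (0.0363), ZNF473 by 0.40 ± 0.12 (0.0175) and ZNF146 by 0.38 ± 0.11 (0.0132). In 6 siDual cells lay below the sum, with values of -1.60 ± 0.39 for ZNF563 (0.00442), -0.77 ± 0.21 for ZNF547 (0.0105), -0.66 ± 0.18 for ZNF44 (0.0121), -0.51 ± 0.14 for ZNF600 (0.0121), -0.50 ± 0.15 for ZNF83 (0.0208) and -0.38 ± 0.12 for ZNF888 (0.0296).

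The calls of ZNF726, ZNF563, ZNF547 and ZNF44 each depended on single libraries. That of ZNF726 was lost without siDual replicate 1, siPAX8 replicate 1, siNT1 replicate 2, siNT2 replicate 1 or either siSOX17 replicate (adjusted p 0.0642 to 0.175), and with DESeq2 (0.0783) or siNT2 alone as the control (0.137), and that of ZNF563 without siPAX8 replicate 2 (0.0526). ZNF547 was lost without siDual replicate 2 (0.0516) or siSOX17 replicate 1 (0.104), and ZNF44 without siDual replicate 1 (0.0655) or siSOX17 replicate 2 (0.0797).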

How the results depend on the processing

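Of the recomputed counts of called members 406 stayed within 1.5 times of the reported count and 38 did not. Keeping only the 118 members that reached 5 CPM gave 49 higher in siPAX8, 19 in siSOX17, 36 in siDual and 37 in siMECOM cells. These counts are over 118 members in place of 197, so a smaller count here does not mean a smaller share. With siNT1 alone or siNT2 alone as the control 6 members were higher in siWT1 cells. Between siDual and siSOX17 cells 2 were lower with no filter.

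Leaving out 1 library at a time gave these ranges of members higher and lower. They were 58 to 81 and 13 to 18 in siPAX8, 19 to 33 and 31 to 52 in siSOX17, 51 to 66 and 19 to 33 in siDual, 31 to 60 and 5 to 8 in siMECOM, and 5 to 14 and 22 to 40 in siWT1 cells. For siDual against siPAX8 they were 0 to 3 and 4 to 20, for siDual against siSOX17 7 to 24 and 0 to 1, for siPAX8 against siSOX17 49 to 80 and 1 to 6, and for additivity 5 to 10 and 5 to 15. DESeq2 called 76 and 14 in siPAX8 cells and 50 and 8 in siMECOM cells.

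Replicate numbers paired the libraries weakly at most. Deviations of same-numbered libraries correlated at -0.018 to 0.161 over 21 pairs of groups, most of them above 0 and 7 over 0.1. The main model has no replicate block. With a block 11538 genes were called in siPAX8 cells against 10989 without it, and 150 against 63 between the control pools. With the replicate block 23 members were lower between siDual and siPAX8 cells and 2 between siDual and siSOX17 cells, and no other count of called members moved by over 1.5 times. Of single-gene values 1964 kept their call and 94 lost it, 74 of these on leaving out 1 library. With 2 libraries a group and most members under 10 CPM, small changes of single genes are not well resolved.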
